A study of Mus musculus with 4 samples.

Results

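The genes of MHC class II antigen presentation were analysed in liver RNA of 4 male aP2-SREBP-1c mice, with 1 array per mouse. These are H2-Aa, H2-Ab1, H2-Eb1, Cd74, Ciita, H2-DMa and H2-DMb1, and they were chosen by name after H2-Ab1 had been seen to differ strongly between livers. The spread of H2-Ab1 between mice is therefore given as a description, and the class II genes were chosen with that value in view. A gene was measured when a probe set, the group of probes that stands for 1 transcript on the array, carried its symbol alone. This held for 6 of the 7 genes and for 19938 genes in all. H2-DMb1 had no probe set of its own, because its probe set is also annotated to H2-DMb2, and no value is given for it.

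The mice are on a C57Bl6 background and carry an HA-tagged transgene, the active N-terminal part of human SREBP-1c driven by the aP2 promoter. The aP2 gene, Fabp4, is active in adipocytes and is also expressed by macrophages. The mice lack normal adipose tissue and develop a severe fatty liver. All were 24 weeks old according to the labels, and were fed regular chow. No treatment is named for them. They form a single group, and livers of other genotypes were not analysed here, so that no difference is assigned to the transgene. The results are therefore levels per mouse and their spread, with no p-values.

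MHC class II molecules are pairs of an α and a β chain that display peptides from the endosomes of antigen-presenting cells to CD4+ T cells. During assembly the invariant chain Cd74 fills the peptide groove and guides the pair into endosomes. There cathepsins degrade Cd74 down to a short fragment, and the H2-DM chaperone exchanges this fragment for antigenic peptides. Ciita is the coactivator that switches on these genes. It does not bind DNA itself but is recruited by the RFX complex, CREB and NF-Y, and in many cells it is induced by interferon-γ. In liver, class II genes are known mainly from dendritic cells, B cells and macrophages including Kupffer cells, and to a lower degree from sinusoidal endothelium. In whole liver RNA, fewer cells of a type and less RNA per cell cannot be told apart.

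The factors that recruit Ciita bind a conserved pair of elements, the X box and the Y box, close to the start of class II genes. To show this shared feature, promoter windows of RefSeq (assembly GRCm38.p6, 250 bases before to 50 bases after a start) were searched on both strands for GNAAC, the core of the X box, followed 25 to 40 bases later by GATTGG, which holds the CCAAT element of the Y box in reverse. The letters and the distance were chosen after these windows had been read. The pair was found in 303 of 32851 windows of the table (0.922%), whereas GNAAC alone was found in 84.8% and GATTGG alone in 16.1%. Windows were matched for H2-Aa, H2-Eb1, H2-DMa and H2-DMb1 of the class II genes analysed here, and for H2-Eb2, H2-Oa, H2-Ob and H2-DMb2 of the other class II chains. The chromosome of Cd74 was excluded from this match by gene, though not from the count over all windows. The promoter of Cd74 is therefore not described. No window was matched for H2-Ab1, Ciita and H2-Ea. The stretches with the pair are written 5′ to 3′ on the strand of the gene, with both motifs in capitals:
H2-Aa (chr17:34287862-34287909, minus strand): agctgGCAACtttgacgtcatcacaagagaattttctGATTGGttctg
H2-Eb1 (chr17:34305771-34305817, plus strand): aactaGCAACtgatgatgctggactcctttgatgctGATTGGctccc
H2-DMb1 (chr17:34153092-34153139, plus strand): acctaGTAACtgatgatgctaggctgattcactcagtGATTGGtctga
H2-Eb2 (chr17:34325538-34325584, plus strand): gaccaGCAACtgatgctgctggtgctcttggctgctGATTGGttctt
H2-Oa (chr17:34092298-34092345, plus strand): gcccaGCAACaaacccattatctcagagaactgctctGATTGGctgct
H2-Ob (chr17:34238813-34238857, plus strand): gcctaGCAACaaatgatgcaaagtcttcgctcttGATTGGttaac

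In each of these 6 windows, 24 to 27 bases lie between the motifs, and GATTGG starts 44 to 101 bases before the start of the gene. The pair was not found in the 2 windows of H2-DMa or in the window of H2-DMb2. A match of letters is a description and not a measurement of binding. The same letters stand before genes that were above background in these livers, such as H2-Aa, and before H2-Ob and H2-Oa, which were not above background on all arrays.

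All values below are log2 expression values as deposited, and a difference of 1 on this scale is a 2-fold difference. Background was set on each array from 1212 olfactory and vomeronasal receptor probe sets, as their 95th percentile, and a gene counted as above background only if it passed this limit in every mouse. The limits were 5.52, 5.35, 5.34 and 5.33 in mice 1 to 4, and 12265 genes passed them. The range of a gene is the difference between the highest and the lowest mouse. Ranges of more than 1.5-fold are counted only among genes above background, here and in every list below. The liver identity of the samples was checked with hepatocyte markers, of which 10 of 10 measured genes were above background and none had a range of more than 1.5-fold. Mouse 1 stood apart from the other mice across the arrays. It had the highest background limit and the lowest mean level of hepatocyte markers (12.75, 12.92, 12.95 and 12.85 in mice 1 to 4), and was the lowest mouse in 60.5% of the genes with a range of more than 1.5-fold. The ranges of the class II genes and the counts beyond 1.5-fold are therefore also given without mouse 1. Precision is limited by the number of arrays.

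The classical class II chains and the invariant chain differed between the 4 livers, while Ciita and H2-DMa varied little. All 6 measured class II genes were above background, and 4 of them, H2-Aa, H2-Ab1, H2-Eb1 and Cd74, had a range of more than 1.5-fold. Among all genes above background, 12.9% had such a range. A range of more than 2-fold was seen in 2 of the 6 genes, H2-Aa and H2-Ab1, and in 1.13% of all genes. The median range of the 6 genes was 0.80, and that of all genes above background was 0.34. Since the class II genes were chosen after H2-Ab1 had been seen to vary, these shares describe the genes and test nothing.

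H2-Ab1, which encodes the β chain of the I-A molecule, was measured at 6.77, 8.56, 8.63 and 7.97 in mice 1 to 4 (7.98 ± 0.86, SD, n = 4; probe set 10444291). Mice 2 and 3 were high and within 0.07 of each other, mouse 4 was lower, and mouse 1 was lowest by a wide margin. The range of 1.86 corresponds to 3.62-fold and was the 16th largest of all 12265 genes. Of the 1977 genes above background whose mean level lay within 0.5 of that of H2-Ab1, 0.455% had a range at least as large.

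H2-Aa encodes the α chain that pairs with H2-Ab1. It was measured at 7.71, 8.90, 8.97 and 8.17 in mice 1 to 4 (8.43 ± 0.61, SD, n = 4; probe set 10450154). The order of the mice was that of H2-Ab1, with mice 2 and 3 above mouse 4 and mouse 1 lowest. The range of 1.26 corresponds to 2.40-fold. Mouse 4 differed from mouse 1 by 0.46 for H2-Aa and by 1.20 for H2-Ab1. The chains of 1 molecule were thus not offset by the same amount between these mice, and 2 probe sets need not respond alike to the same difference.

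Cd74, the invariant chain, was measured at 7.73, 8.69, 8.69 and 8.25 in mice 1 to 4 (8.34 ± 0.46, SD, n = 4; probe set 10456005). Mice 2 and 3 were practically equal, mouse 4 lay between them and mouse 1, and the range of 0.96 corresponds to 1.94-fold. A range at least as large was found in 1.49% of all genes above background. H2-Eb1 encodes the β chain of the I-E molecule. On the C57Bl6 background its partner gene H2-Ea is defective, so that the I-E molecule is not displayed. H2-Eb1 was measured at 7.09, 7.73, 7.61 and 7.25 in mice 1 to 4 (7.42 ± 0.30, SD, n = 4; probe set 10444298). Here mouse 2 was highest, mouse 1 was lowest and mouse 4 was close to mouse 1, with a range of 0.64, or 1.56-fold. This is only slightly above the limit of 1.5-fold, or 0.58 on the log2 scale, and 9.26% of all genes had a range at least as large.

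**Figure D1:**
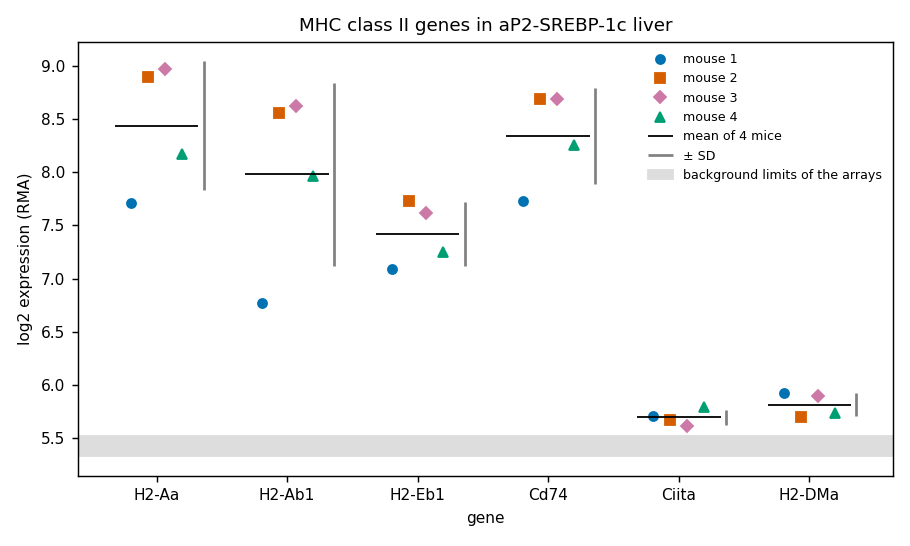
Log2 expression (vertical axis) of the 6 measured MHC class II genes (horizontal axis) in the 4 mice. Symbols stand for mice, horizontal lines for the mean, grey vertical lines for ± SD, and the grey band for the background limits of the arrays, 5.33 to 5.52. Mouse 1 is lowest and mice 2 and 3 are highest for H2-Aa, H2-Ab1, H2-Eb1 and Cd74, whereas the mice lie close together for Ciita and H2-DMa just above the band.

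Ciita, the coactivator, was measured at 5.70, 5.67, 5.61 and 5.79 in mice 1 to 4 (5.70 ± 0.07, SD, n = 4; probe set 10433507). Mouse 4 was highest and mouse 3 lowest, and the range of 0.18 was exceeded or equalled by 87.0% of all genes above background. H2-DMa encodes the α chain of the peptide exchange chaperone. It was measured at 5.92, 5.70, 5.90 and 5.74 in mice 1 to 4 (5.82 ± 0.11, SD, n = 4; probe set 10444229). Its range was 0.22, with mouse 1 highest and mouse 2 lowest. Both genes lay close to the background limit, by 0.31 on average for Ciita and 0.43 for H2-DMa, and neither exceeded the 99th percentile of the receptor probe sets on all arrays. Close to background a difference between mice is compressed. The small ranges of Ciita and H2-DMa are therefore measurements of weak signals and do not show that their transcripts were equal in the 4 livers.

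**Figure D2:**
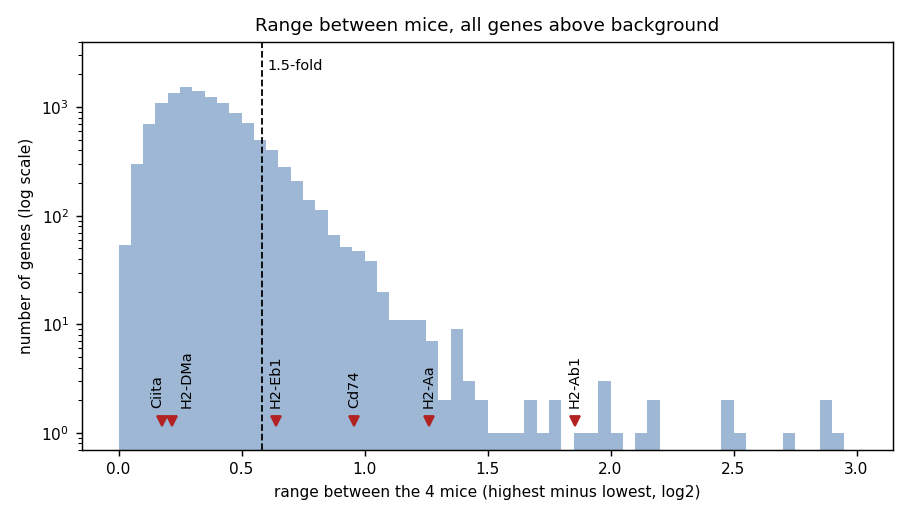
Distribution of the range between the 4 mice (highest minus lowest, log2, horizontal axis) over the 12265 genes above background, as the number of genes on a log scale (vertical axis). Red triangles mark the 6 MHC class II genes and the dashed line marks 1.5-fold. H2-Ab1 (1.86) and H2-Aa (1.26) lie in the right tail, H2-Eb1 (0.64) lies just past the line, and Ciita (0.18) and H2-DMa (0.22) lie left of the median of 0.34.

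The order of the mice was shared by H2-Ab1, H2-Aa, Cd74 and H2-Eb1. In each of them mouse 1 was lowest and both mice 2 and 3 exceeded mouse 4. This order was found in 22.6% of all genes above background and in 44.6% of the 1584 genes with a range of more than 1.5-fold, so that it was common in these arrays. Averaged over the 6 genes, the difference from the mean of the gene was -0.46, 0.26, 0.29 and -0.09 in mice 1 to 4. Without mouse 1, the range was 0.80 for H2-Aa, 0.66 for H2-Ab1, 0.49 for H2-Eb1, 0.44 for Cd74, 0.18 for Ciita and 0.20 for H2-DMa. H2-Aa and H2-Ab1 thus still differed by more than 1.5-fold among mice 2 to 4, by 1.74-fold and 1.58-fold, and the background share was then 2.71%. The other 4 genes did not.

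Because mouse 1 stood apart, the 4 arrays were also brought to 1 common distribution by quantile normalization. The range was then 1.75 for H2-Ab1, 1.06 for H2-Aa, 0.82 for Cd74 and 0.56 for H2-Eb1, with mouse 1 lowest in all 4 genes. H2-Ab1, H2-Aa and Cd74 remained past 1.5-fold, H2-Eb1 was just below it, and the background share was 10.6%. The position within an array does not depend on scaling. H2-Ab1 stood at the 68.4th percentile of all genes on the array of mouse 1 and at the 90.1th, 90.1th and 85.0th percentile in mice 2 to 4. H2-Aa stood at percentiles of 84.4, 92.1, 92.1 and 86.9 in mice 1 to 4, and Cd74 at 84.6, 90.9, 90.5 and 87.6. For H2-Eb1 the percentiles were 75.0, 82.8, 80.6 and 75.6, with mice 1 and 4 nearly equal. Ciita stood at 39.9, 40.2, 39.3 and 44.3 and H2-DMa at 45.8, 41.0, 47.3 and 43.1, and in neither was mouse 1 lowest.

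On chromosome 17 the class II genes lie side by side with genes of class I presentation. RefSeq lists 15 protein-coding genes or pseudogenes from H2-Oa to H2-Ea, of which 9 were above background, 4 were measured below the limit on at least 1 array, and H2-DMb1 and H2-DMb2 had no probe set of their own. Of the 9 genes above background, 4 had a range of more than 1.5-fold, which 12.9% of all genes above background had. These were Tap1 and the neighbours H2-Ab1, H2-Aa and H2-Eb1. The latter belong to the genes chosen with the value of H2-Ab1 in view. H2-Eb2, next to H2-Eb1, had a range of 0.76 below background, with mouse 1 highest. Tap1, a subunit of the peptide transporter of class I presentation, was measured at 6.13, 6.52, 6.78 and 6.34 in mice 1 to 4, again with mouse 1 lowest. Brd2 and Psmb9, which lie in the same stretch, had ranges of 0.14 and 0.09.

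**Figure D3:**
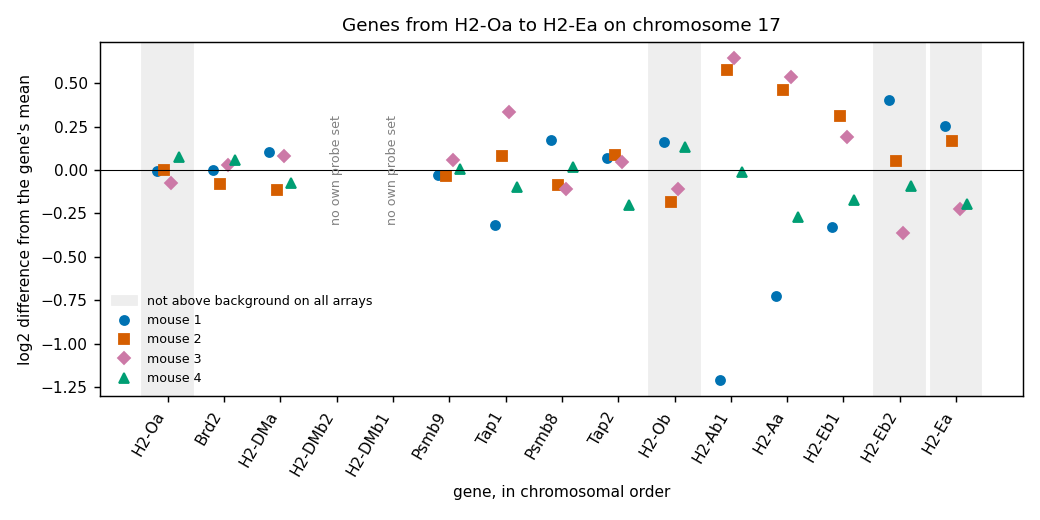
Log2 difference from the gene's mean over the 4 mice (vertical axis) for the 15 genes from H2-Oa to H2-Ea in chromosomal order (horizontal axis, not to scale). Symbols stand for mice, and grey columns mark genes not above background on all arrays. The mice spread apart at H2-Ab1, H2-Aa and H2-Eb1, with mouse 1 at -1.21, -0.73 and -0.33, and lie close together at Brd2 and Psmb9.

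The remaining class II chains gave weak signals. H2-Oa and H2-Ob encode the chains of H2-DO, which restrains H2-DM and is known mainly from B cells. H2-Oa (5.42 ± 0.06, SD, n = 4) exceeded the background limit on 3 arrays and H2-Ob (5.30 ± 0.17) on 1. H2-Eb2 (5.08 ± 0.32) and H2-Ea (4.65 ± 0.25), the defective I-E α chain of this background, exceeded it on none. None of the 4 measured genes of this group was thus above background on all arrays.

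The factors that recruit Ciita to class II promoters were all above background. A range of more than 1.5-fold was seen in 2 of 7, and in 12.9% of all genes above background. These were Rfx5, a subunit of the RFX complex that binds the X box, and Nfyb, a subunit of NF-Y, which binds the Y box. In mice 1 to 4, Rfx5 stood at 5.58, 6.29, 6.00 and 6.08, and Nfyb at 7.10, 7.70, 7.81 and 7.67. Mouse 1 was lowest in both. The other factors varied less. Creb1 was measured at 7.14 ± 0.17, Rfxap at 6.80 ± 0.12, Rfxank at 7.20 ± 0.08, Nfya at 6.86 ± 0.08 and Nfyc at 7.69 ± 0.06 (SD, n = 4 each). Without mouse 1, none of the 7 factors differed by more than 1.5-fold. In Rfx5, mouse 4 lay above mouse 3, and in Nfyb it lay just below mice 2 and 3.

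Interferon-γ signals through its receptor, the kinases Jak1 and Jak2 and the factor Irf1 to the Ciita gene. Of 9 measured genes of this input, 8 were above background. Of these, 3 had a range of more than 1.5-fold, which 12.9% of all genes above background had. Ifngr1, the ligand-binding chain of the receptor, was measured at 7.26, 7.80, 7.94 and 8.00 in mice 1 to 4. Irf1 was measured at 6.47, 7.02, 7.08 and 7.09, and Irf2, a related factor, at 7.83, 8.37, 8.26 and 8.45. In these 3 genes mouse 1 was lowest and mouse 4 was highest, so that mouse 4 did not take the middle place it had for the class II chains. With the mean of its 2 probe sets, the range of Irf1 was 0.18 in place of 0.62. The second receptor chain Ifngr2 (8.73 ± 0.02) and Jak2 (7.02 ± 0.04) hardly varied, and Jak1 was measured at 9.53 ± 0.18, Irf8 at 6.37 ± 0.16 and the inhibitor Socs1 at 6.31 ± 0.16 (SD, n = 4 each). Ifng itself (5.11 ± 0.11) was not above background on any array. Without mouse 1, none of the genes of this input differed by more than 1.5-fold.

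Proteases and helpers of the endosome turn antigens into peptides and remove Cd74 from class II molecules. Of 13 measured genes, 12 were above background, and in all 12 mouse 1 was lowest, as it was in 46.1% of all genes above background. The full order of the class II chains, with mouse 1 lowest and mice 2 and 3 above mouse 4, was seen in 9 of the 12. It was seen in 22.6% of all genes above background. Among all genes above background, 12.9% had a range of more than 1.5-fold. Ctss, the cathepsin that performs the late cuts in Cd74 in antigen-presenting cells, was the only 1 of the 12 processing genes with such a range. It was measured at 7.98, 8.64, 8.75 and 8.16 in mice 1 to 4, high in mice 2 and 3 and low in mice 1 and 4. Its range was 0.77, and it was 0.59 without mouse 1 and 0.57 after quantile normalization. Ctsb (11.21 ± 0.26), Lgmn (8.18 ± 0.26) and Ifi30 (7.09 ± 0.22) varied less, and the median range of the group was 0.42. Marchf1, a ubiquitin ligase that removes class II molecules from the cell surface, was measured at 5.78 ± 0.05 and the related Marchf8 at 8.10 ± 0.25 (SD, n = 4 each). Cst7 was not above background and had a range of 0.74 there, with mouse 1 highest.

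**Figure D4:**
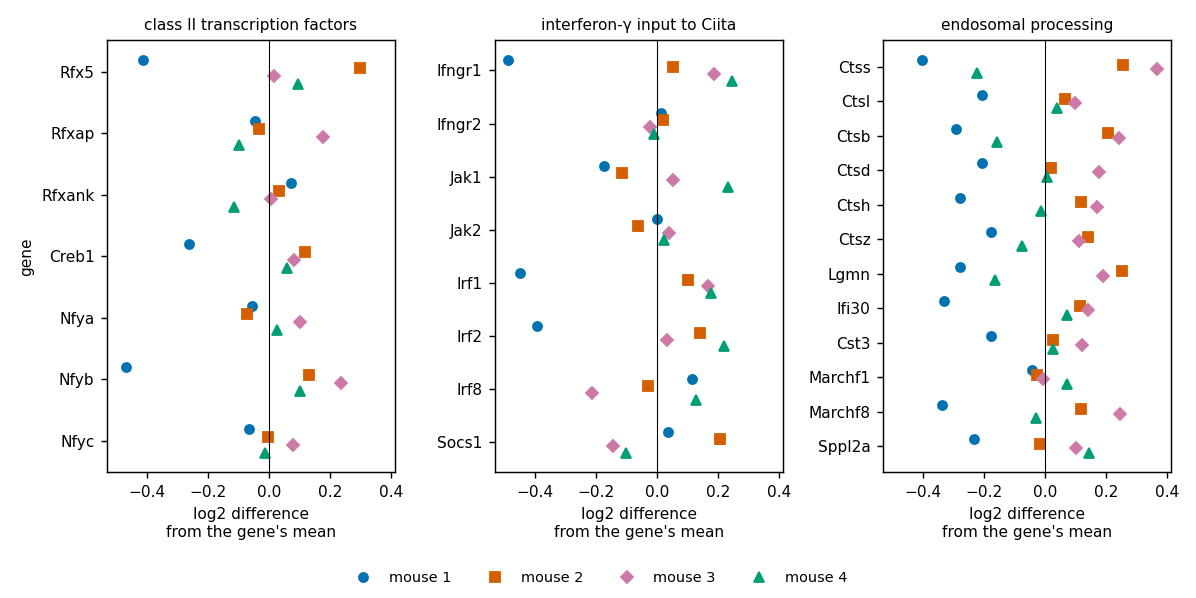
Log2 difference from the gene's mean over the 4 mice (horizontal axis) for genes above background among the class II transcription factors (7 genes), the interferon-γ input to Ciita (8) and endosomal processing (12), with genes on the vertical axis. Symbols stand for mice. Mouse 1 lies left of the other mice for Rfx5, Nfyb, Ifngr1, Irf1, Irf2 and all 12 processing genes, and Ctss (range 0.77) shows mice 2 and 3 apart from mice 1 and 4.

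Markers of the cells that carry class II molecules did not all follow the class II chains. Of 12 measured dendritic cell markers, 4 were above background, and the defining markers Itgax, Flt3, Xcr1 and Clec9a were not above it on all arrays. The mean level of these 12 markers was 5.46, 5.29, 5.37 and 5.24 in mice 1 to 4. Among the 4 above background, Batf3 alone had a range of more than 1.5-fold, which 12.9% of all genes above background had. Batf3 was highest in mouse 1 (6.75, 6.16, 5.93 and 5.78). Siglech, also above background, had the order of the class II chains (5.61, 5.94, 5.91 and 5.72). Itgax, which exceeded the limit on 3 arrays, had this order as well (5.30, 5.65, 5.69 and 5.37). Xcr1, Irf4, Clec10a and Itgae, not above background on any array, were highest in mouse 1. Of 12 measured B cell markers, 6 were above background, and Ms4a1, Cd79a and Cr2 were not. Their mean level was 5.29, 5.21, 5.19 and 5.09. Blk was the only 1 of the 6 above background with a range of more than 1.5-fold (12.9% of all genes above background). It was also the only 1 of the 6 highest in mouse 1 (6.20, 5.61, 5.54 and 5.54), and 3 of the 6 were highest in mouse 2 or 3. Of those not above background on all arrays, Ms4a1 and Cr2 were highest in mouse 2 and Cd79a in mouse 3. Fcer2a was highest in mouse 4, and Fcrla and Vpreb3 in mouse 1. In both lists the mean level of mouse 1 was the highest and that of mouse 4 the lowest, unlike the class II chains. The background limit was likewise highest in mouse 1 and lowest in mouse 4, and its part in these levels was not tested.

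All 12 Kupffer cell markers were above background, with a mean level of 7.56, 7.61, 7.62 and 7.71 in mice 1 to 4. Mouse 1 was lowest in 6 of them (46.1% of all genes above background) and highest in 4. Vsig4, a complement receptor of Kupffer cells, was measured at 7.90, 8.37, 8.55 and 8.53, and the complement component C1qb at 8.00, 8.73, 8.78 and 8.49. The scavenger receptor Marco ran the other way, with 7.06, 6.31, 6.14 and 6.63. Clec4f, which defines Kupffer cells, was measured at 8.55 ± 0.18 (SD, n = 4). The Kupffer cell list thus did not share 1 order of the mice.

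Among the marker lists, that of monocytes and recruited macrophages shared the order of the class II chains most often. Of its 11 measured genes, 6 were above background. In all 6 of these mouse 1 was lowest, as it was in 46.1% of all genes above background. In 5 of the 6 both mice 2 and 3 also exceeded mouse 4, an order seen in 22.6% of all genes above background. The mean level of the 11 genes was 6.11, 6.55, 6.49 and 6.30 in mice 1 to 4. Of the 6 above background, Mpeg1, Cx3cr1 and Cd52 had a range of more than 1.5-fold, as did 12.9% of all genes above background. Mpeg1, a pore-forming protein of macrophages, was measured at 7.33, 8.25, 8.13 and 8.16. Cx3cr1, the fractalkine receptor, was measured at 5.75, 6.24, 6.52 and 6.12, and the leukocyte surface protein Cd52 at 6.63, 7.50, 7.51 and 7.00. The chemokine receptor Ccr2, which defines recruited monocytes, was not above background on any array, and neither were Ms4a7 and S100a4. Itgam exceeded the limit in mouse 1 alone. Among the genes not above background on all arrays, Itgam and S100a4 were highest in mouse 1, and Ccr2, Gpnmb and Ms4a7 were lowest in it. Without mouse 1, none of the 6 genes differed by more than 1.5-fold. The part of these cells in the class II values was not tested.

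Of 12 measured markers of T cells and NK cells, 4 were above background. None of these 4 had a range of more than 1.5-fold, with Ccl5 (range 0.48), Cd5 (0.36) and Cd3e (0.29) varying most. Among all genes above background, 12.9% had such a range, and this share stands beside the counts of each list below. The mean level of the 12 markers lay between 5.02 and 5.11. Of 6 measured genes of lymph node stroma, 3 were above background. Ccl19 and Cxcl13 differed by more than 1.5-fold and were highest in mouse 1, Ccl19 at 6.72, 6.38, 6.33 and 6.09 and Cxcl13 at 6.91, 5.94, 6.36 and 6.84. All 8 endothelial markers were above background with a median range of 0.33, and Lyve1 alone exceeded 1.5-fold, at 7.52, 8.28, 8.05 and 7.71. Among 5 measured biliary markers, 3 were above background, with ranges of 0.58 for Krt19, 0.36 for Sox9 and 0.20 for Krt7. Hepatocyte markers had the order of the class II chains in 6 of 10 genes (22.6% of all genes above background), but with a median range of only 0.17. Their largest ranges were 0.43 for Hnf4a, 0.42 for Cyp2e1 and 0.37 for Tat. Genes of pancreatic acinar cells had the largest differences and ran opposite to the class II chains. Their mean level over 12 measured genes was 8.05, 5.97, 6.25 and 7.78 in mice 1 to 4, and all 11 above background, Cpa1, Cpb1, Ctrb1, Ctrl, Cela1, Cela2a, Cela3b, Cel, Prss2, Clps and Rnase1, exceeded 1.5-fold. Whether acinar tissue in the samples has a part in the class II values was not tested.

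**Figure D5:**
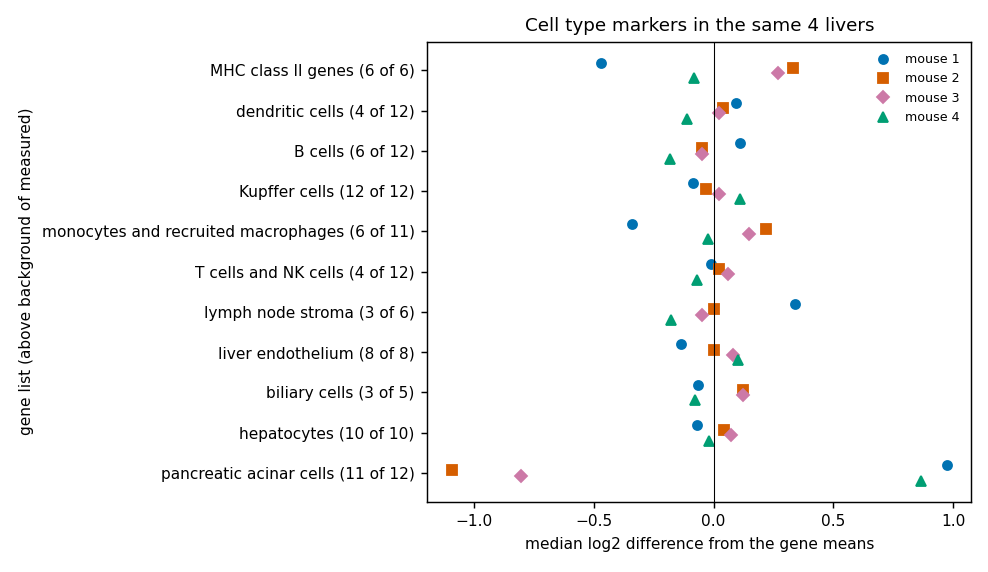
Median log2 difference from the gene means (horizontal axis) of the 6 MHC class II genes and of 10 lists of cell type markers (vertical axis, with the number above background of those measured), for each of the 4 mice. Medians are taken over genes above background. The class II genes (-0.47, 0.33, 0.27 and -0.08 in mice 1 to 4) and the list of monocytes and recruited macrophages (-0.34, 0.22, 0.15 and -0.02) both have mouse 1 lowest and mice 2 and 3 highest, hepatocyte markers do so within a much narrower spread (-0.07, 0.04, 0.07 and -0.02), and acinar genes (0.97, -1.09, -0.80 and 0.87) run the other way.

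The genes closest in pattern were sought among all genes above background by the root mean square distance between their differences from the mean in the 4 mice. The differences were not scaled, so that this distance depends on their size as well as on the order of the mice. For the average of the 6 class II genes, the 10 nearest genes were Cyp1a2, Tsc22d1, Ces1g, Irgm1, Iars2, 4833439L19Rik, Sntb1, Pstpip2, Tifa and Acadm, at distances of 0.0054 to 0.020. Cyp1a2, a detoxification enzyme of hepatocytes, was measured at 10.29, 11.02, 11.03 and 10.65 in mice 1 to 4. Irgm1, an interferon-inducible GTPase, was measured at 6.99, 7.70, 7.76 and 7.39. Nearest to H2-Ab1 alone were Orm2, BC023105, Bcl6, Saa1 and Serpina7, at distances of 0.092 to 0.10. Saa1, a serum amyloid of the acute phase, was measured at 6.43, 8.15, 8.40 and 7.46, and Orm2, another acute phase protein, had a range of 1.75 with mouse 1 lowest. The class II genes themselves were farther from H2-Ab1, at 0.28 for H2-Aa, 0.36 for Cd74, 0.52 for H2-Eb1, 0.77 for Ciita and 0.79 for H2-DMa. H2-Aa and Cd74 had the order of the mice of H2-Ab1, but smaller ranges (1.26 and 0.96, against 1.86), which adds to this distance. With 4 mice such likeness is a description of these livers.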

How the data were processed

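Liver RNA (150 ng per mouse) had been hybridized to 1-colour Mouse Gene 1.0 ST arrays. The authors deposited log2 expression values per probe set. The submitters' processing notes name RMA and the Affymetrix Expression Console, and their sample descriptions name RMA in TAC software. RMA corrects background, equalizes the distributions of the arrays and combines probes by median polish. A version, a genome build and the arrays normalized together are not given in the sources used here. All 4 columns were matched to a mouse by accession. Whether the mice were littermates is not given per sample.

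Of 35556 probe sets, 21789 had 1 symbol in the platform annotation, 1621 had several and 12146 were unnamed here. For each gene the probe set with the highest mean was used. No symbol needed a change against RefSeq. The class II genes and all lists were chosen with earlier results of these data known. Named genes follow a fixed rule: all genes of the class II groups, those beyond 1.5-fold in other lists (or the 3 of largest range) and the nearest genes in pattern. Ctsb, Lgmn, Ifi30, Marchf1, Marchf8, Siglech, Clec4f, Brd2 and Psmb9 fall outside it and were chosen after their values were seen. The same holds for genes named as not above background in the lists outside the class II groups. Means, SDs and ranges were computed in Python 3.11.15 with numpy 2.4.6, pandas 2.3.3 and matplotlib 3.10.9, and the steps were tested on simulated data. No pair of arrays shared more than 25 identical values. Alternatives comprised median-centred and quantile-normalized arrays, the mean of all probe sets, a 99th percentile limit, no filter, a 2-fold range and leaving out each mouse. The letters and the distance used for promoter motifs were chosen after the windows were read.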

Additional observations from a re-analysis of the deposited data

Results flagged for a closer look

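In 7 of 79 named genes, 1 mouse stood apart from the other mice by a gap that exceeded Dixon's 95% critical value (8.86%). The same held for 5.75% of all genes above background, and chance alone gives about 5%. None of the class II genes was among them. Mouse 1 was low for the class II factor Creb1, by -0.35 from the mean of the other mice (6.88, 7.26, 7.22 and 7.20 in mice 1 to 4). It was low for Irf1 by -0.60 and for the macrophage gene Mpeg1 by -0.86. Mouse 1 was high for the proteasome activator Psme2, by 0.59 (9.06, 8.51, 8.40 and 8.51), and for the B cell kinase Blk, by 0.63. Mouse 4 was low for Cd40, a receptor of antigen-presenting cells, by -0.34 (6.23, 6.17, 6.19 and 5.85). Mouse 3 was high for the biliary gene Sox9, by 0.34 (7.08, 7.04, 7.40 and 7.07).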

How the results depend on the processing

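The count of class II genes beyond 1.5-fold (4 of 6) was also 4 with median-centred arrays, with the mean of all probe sets, with the 99th percentile limit and without a filter, and 3 after quantile normalization. It was 2 with a 2-fold range, and 2 to 4 with 1 mouse left out, the lowest without mouse 1. The median range of these genes (0.80) was 1.11 with the 99th percentile limit, which only 4 of them exceed, and 0.46 to 0.80 with 1 mouse left out. The count over all genes (1584) was 138 with a 2-fold range, 3749 without a filter and 346 to 1295 with 1 mouse left out. With quantile normalization and without mouse 1, an alternative chosen after seeing the data, these results were 2, 0.48 and 300. Across the alternatives, 786 of 790 levels of named genes stayed within 1 SD of the gene, and the others were Nfyc, Irf1 and Nlrc5 with the mean of all probe sets and Ifngr2 in the last setting. Of 790 ranges, 92 moved by more than the SD of the gene, 33 of them without mouse 1. A stricter limit can only lower these counts. Leaving out a mouse can only narrow the range of a gene, but more genes then pass the background limit (12761 without mouse 1, against 12265). Causes of the changes were not tested. No paired analysis was possible because there is only a single group of mice. Signal over background limits Ciita, H2-DMa and the lymphocyte and dendritic cell markers most.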

Other observations

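Class I presentation displays peptides from the cytosol. All 16 measured genes were above background, 4 had a range of more than 1.5-fold (12.9% of all genes above background), and the median range was 0.41. Mouse 1 was lowest in 10 of the 16 (46.1% of all genes above background) and highest in 3. The full order of the class II chains was seen in 5, and in 22.6% of all genes above background. B2m, the light chain of class I molecules, stood at 12.69, 13.16, 13.29 and 12.93 in mice 1 to 4. Tap1 shared its order, with mouse 1 lowest and mouse 3 highest. Psme2 and Nlrc5, the class I counterpart of Ciita, were highest in mouse 1 (9.06, 8.51, 8.40 and 8.51 for Psme2, and 9.59, 9.03, 9.14 and 8.79 for Nlrc5). Nlrc5 has 19 probe sets, and with their mean its level was 6.22 and its range 0.16. Without mouse 1, none of the 16 genes differed by more than 1.5-fold.

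Of 8 measured genes for the contact between T cells and antigen-presenting cells, on either cell, 2 were above background. These were Cd274 (5.77 ± 0.17, SD, n = 4) and Cd40 (6.11 ± 0.17). Cd4, Lag3, Cd80, Cd86, Pdcd1lg2 and Icosl were not above background on all arrays, and neither Cd274 nor Cd40 had a range of more than 1.5-fold.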
